A study of Mus musculus with 3 samples.

Results

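Cxcl12, Cxcr4 and Ackr3 encode a chemokine and its pair of receptors, and they were followed here through the cell classes of the mouse glomerulus, the filtering unit of the kidney. They were chosen by gene symbol, as 3 of the 31058 rows of the gene tables. Summed over all kept cells, Cxcl12 had 7339 UMIs (unique molecular identifiers, each counting 1 captured RNA molecule) in 2878 cells, Ackr3 had 5867 UMIs in 2111 cells and Cxcr4 had 438 UMIs in 239 cells. Cxcl12 lay on chromosome 6 at 117168535 to 117181367 on the plus strand of GRCm38, Ackr3 on chromosome 1 at 90203980 to 90216751 on the plus strand, and Cxcr4 on chromosome 1 at 128588199 to 128592293 on the minus strand.

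The cells came from glomeruli of 3 healthy C57Bl/6 mice, and each mouse gave 1 library of 10x droplet sequencing, which reads a tag near the 3′ end of each RNA. The female ERaKO mouse carried ERalphaKO, beside Pax2.rtTA with TetO.Cre and with R26.Confetti; ERalphaKO is a knockout of oestrogen receptor alpha that its label places in renal progenitor cells (RPC). The male mouse and the female mouse had Pax2.rtTA with TetO.Cre and with R26.Confetti, without ERalphaKO. All 3 mice therefore carried the doxycycline-dependent Cre and the Confetti reporter, were given doxycycline at 20 days of age and were followed to 90 days. The Pax2 driver limits recombination to cells that expressed Pax2 while doxycycline was given, and to their descendants. With 1 mouse and 1 library per group there is no spread between animals to set a difference against, and every interval given here covers counting error only.

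CXCL12 is a chemokine held on the surface of cells and matrix by heparan sulphate. It signals through CXCR4, a receptor coupled to inhibitory G proteins that directs the migration and retention of leukocytes, progenitors and endothelial cells. ACKR3, also called CXCR7, binds the same chemokine, recruits arrestin and takes the ligand up for degradation, and so sets how much CXCL12 reaches CXCR4. In the kidney, Cxcl12 made by podocytes is known to guide the growth of glomerular vessels during development, and podocyte Cxcl12 has been studied as a signal to the progenitors among the parietal cells of Bowman's capsule.

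The promoters of the 3 genes are shown because the series compares an oestrogen receptor knockout and the sexes. Each is the 250 bases before the annotated start in RefSeq's GRCm38.p6, written 5′ to 3′ on the gene's own strand. They are chr6:117168285-117168534 on the plus strand for Cxcl12, chr1:90203730-90203979 on the plus strand for Ackr3 and chr1:128592300-128592549 on the minus strand for Cxcr4. Capitals mark matches, on either strand, to GGGCGG (the GC box), to TATAAA (the TATA box) or to the hypoxia core, which is ACGTG or the same letters with G first.
Cxcl12: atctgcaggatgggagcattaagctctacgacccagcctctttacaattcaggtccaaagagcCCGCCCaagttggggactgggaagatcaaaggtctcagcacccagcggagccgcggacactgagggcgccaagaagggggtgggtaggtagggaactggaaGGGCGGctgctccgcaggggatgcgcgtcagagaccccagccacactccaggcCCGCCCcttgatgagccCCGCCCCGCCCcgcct
Ackr3: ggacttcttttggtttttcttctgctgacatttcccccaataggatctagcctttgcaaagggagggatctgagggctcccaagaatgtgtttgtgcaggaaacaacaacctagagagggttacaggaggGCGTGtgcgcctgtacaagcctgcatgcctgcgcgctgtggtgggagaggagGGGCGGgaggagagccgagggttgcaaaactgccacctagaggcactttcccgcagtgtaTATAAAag
Cxcr4: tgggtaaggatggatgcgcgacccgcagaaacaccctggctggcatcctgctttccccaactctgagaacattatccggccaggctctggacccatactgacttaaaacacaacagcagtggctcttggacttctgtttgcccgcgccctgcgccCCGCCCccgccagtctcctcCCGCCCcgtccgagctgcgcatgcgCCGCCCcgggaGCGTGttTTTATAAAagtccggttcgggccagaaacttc

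The Cxcl12 window held 5 GC boxes, 2 of which overlap by a base, with neither a TATA box nor a hypoxia core. The Ackr3 window held 1 GC box, 1 hypoxia core and 1 TATA box, which begins 8 bases before the start. The Cxcr4 window held 3 GC boxes, 1 hypoxia core and a TATA box read on both strands from overlapping letters. Among 27025 promoters of the same length, 32.9% held a GC box, 12.97% a TATA box and 38.6% a hypoxia core. An oestrogen receptor half-site (GGTCA) was in none of the 3 windows and in 34.9% of all promoters, and the full site, an inverted pair of half-sites 3 bases apart, was in none of the 3 and in 0.0629% of all. These matches describe letters in short windows and say nothing of binding.

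Before the results, the libraries themselves need describing. The deposited barcodes numbered 3986 in the female ERaKO, 4244 in the male and 3555 in the female library, with 47522141, 44585342 and 44942380 UMIs in that order of libraries. Barcodes above 25% mitochondrial UMIs made up 34.0% of the female ERaKO, 21.0% of the male and 17.7% of the female library and were left out, and pairs of libraries shared 4 to 8 barcodes. After removal of called doublets, 2520, 3224 and 2828 cells remained, with median depths of 8119, 7323.5 and 8831.5 UMIs in the same order. Esr1, the gene of the deleted receptor, had 3 UMIs in the podocytes of each library and 23.3 CPM in female ERaKO, 10.2 CPM in male and 4.80 CPM in female proximal tubule cells, a class made of different clusters in the male library than in the other 2. Which part of Esr1 was deleted is not given in the sources used here, and a 3′ tag outside the deleted part checks nothing. The 8572 cells formed 27 clusters, made with Cxcl12, Cxcr4 and Ackr3 left out of the clustering genes. Of these clusters, 22 were named from marker genes as 11 classes, called podocyte-like and so on and shortened below, and 5 clusters with 451 cells stayed unnamed.

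The ligand stood highest in 3 of the cell classes, which were podocytes, parietal cells and endothelial cells. Levels are in CPM, the UMIs of a gene per 1e6 UMIs of the class in that library. In podocytes, the cells whose foot processes form the filter, Cxcl12 stood at 77.8 CPM in the female ERaKO, 129 CPM in the male and 90.8 CPM in the female library. In parietal cells it stood at 92.1 CPM in the female ERaKO, 88.3 CPM in the male and 109 CPM in the female library. In endothelial cells it stood at 142 CPM in the female ERaKO, 124 CPM in the male and 90.6 CPM in the female library. That class was uneven, as detailed below. Its Sox17-led cluster held 194 to 252 CPM, and its cluster led by Kdr and Ehd3, a glomerular capillary gene, 2.03 to 5.80 CPM. The male library was the highest of the 3 in podocytes, the female ERaKO library in endothelial cells and the female library in parietal cells.

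Ordered by their mean over the 3 libraries, endothelial cells (119 ± 26.2 CPM, SD, n = 3 libraries) came before podocytes (99.2 ± 26.7 CPM) and parietal cells (96.3 ± 10.8 CPM), and the ranges of these neighbours overlapped. Thick limb and distal tubule cells followed at 45.4 ± 17.2 CPM, below every value in the 3 leading classes. Those tubule cells also held 107 CPM, 303 CPM and 629 CPM of the podocyte marker Nphs1 in the female ERaKO, male and female libraries. Podocyte RNA at that Nphs1 level would carry 6.81, 26.4 and 34.4 CPM of Cxcl12 in the same libraries, and its part in the level was not tested. Mesangial cells, the contractile support cells of the tuft, held Cxcl12 at 2.40 CPM in the female ERaKO, 1.44 CPM in the male and 9.44 CPM in the female library. Podocytes exceeded mesangial cells in 3 of 3 libraries, by a mean of 4.47 on the log2 scale (SD 1.30), and an exact two-sided sign-flip permutation test gave p = 0.25, the smallest that 3 libraries allow. Podocytes and endothelial cells differed by a mean log2 ratio of −0.27 (SD 0.52, exact permutation p = 1), with the podocyte level lower in the female ERaKO library and close to the endothelial level in the other 2.

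Counted cell by cell, a Cxcl12 UMI was seen in 37.1% of 866 female ERaKO, 50.9% of 1291 male and 48.6% of 1493 female podocytes. In parietal cells the shares were 58.9% of 214 female ERaKO, 58.2% of 122 male and 57.7% of 78 female cells. Their median depths were 11839, 9324.5 and 9015 UMIs in that order. Mesangial cells, read here as the background from free RNA, gave 2.65%, 1.04% and 3.92% in the same order of libraries, at median depths of 8509, 5776 and 7665 UMIs against 7341.5, 7746 and 9184 UMIs in podocytes. Podocytes held 29.3% of all Cxcl12 UMIs in the female ERaKO library, 56.1% in the male and 61.3% in the female library. They were 34.4%, 40.0% and 52.8% of the kept cells in that order. Endothelial cells held 35.6% in the female ERaKO, 29.7% in the male and 24.5% in the female library. Parietal cells held 18.8% in the female ERaKO, 6.13% in the male and 4.48% in the female library, where they were 8.49%, 3.78% and 2.76% of the kept cells.

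**Figure D1:**
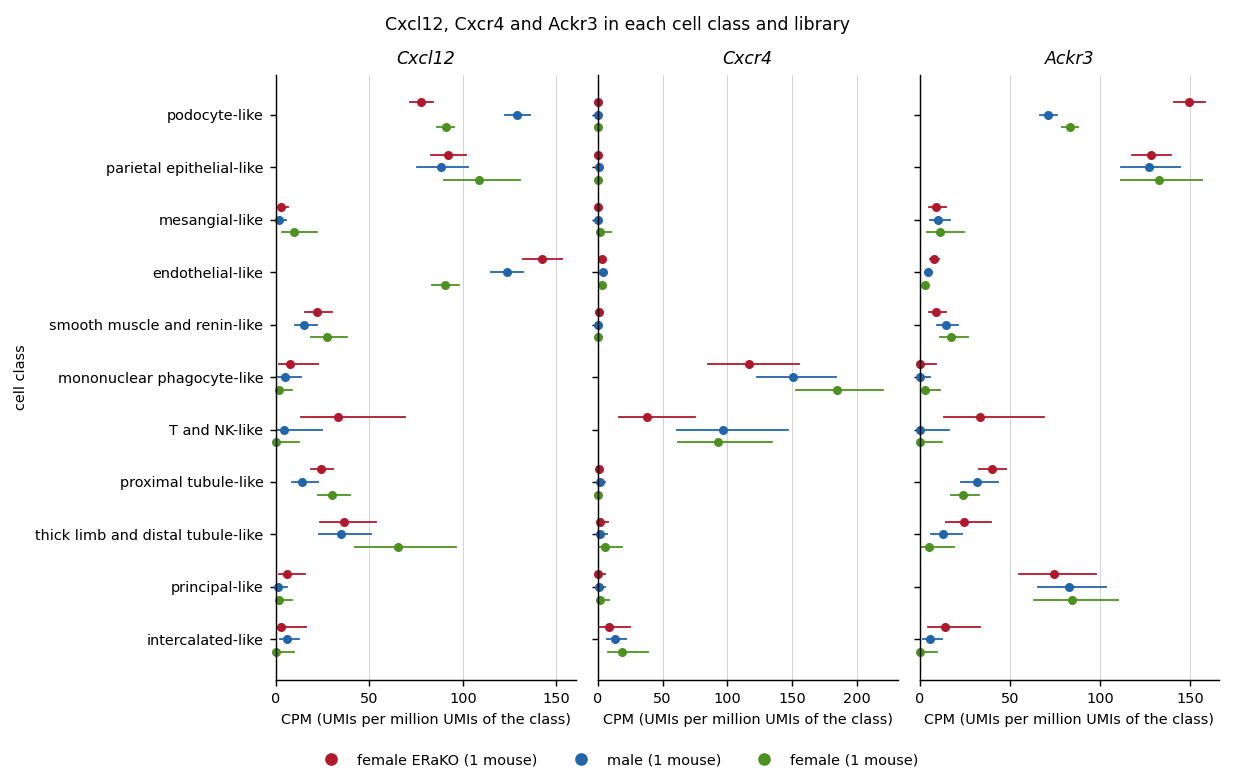
CPM (UMIs per 1e6 UMIs of the class) of Cxcl12, Cxcr4 and Ackr3 on the x axes for 11 cell classes on the y axis, with 1 point per library and lines for exact Poisson 95% intervals. Cxcl12 is high in podocyte, parietal and endothelial cells, Cxcr4 in phagocytes and lymphocytes, and Ackr3 in parietal, podocyte and principal cells, with podocyte Ackr3 at 149 CPM in the female ERaKO library against 83.3 CPM in the female library.

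The signalling receptor was nearly absent from podocytes and parietal cells, and low in endothelial cells as a class. Cxcr4 had 1 UMI in 866 female ERaKO podocytes, 0 in 1291 male podocytes and 0 in 1493 female podocytes. A count of 0 allows a share of cells with a UMI of up to 0.232% in the male and 0.201% in the female library. Parietal cells, which the comparison includes as possible responders to podocyte Cxcl12, had 0 Cxcr4 UMIs in 214 female ERaKO cells, 1 UMI in 122 male cells and 0 in 78 female cells. A share of up to 1.402% in the female ERaKO and 3.85% in the female parietal cells is allowed by those zeros. Endothelial cells had 17 Cxcr4 UMIs in the female ERaKO, 25 in the male and 22 in the female library, which is 20.7%, 14.8% and 11.8% of all Cxcr4 UMIs. The parietal classes are small, so low receptor levels were not detectable there at this depth.

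Mononuclear phagocytes, such as macrophages and dendritic cells, carried most of the Cxcr4. Their level was 117 CPM (46 UMIs) in the female ERaKO, 151 CPM (100 UMIs) in the male and 185 CPM (120 UMIs) in the female library. A Cxcr4 UMI was seen in 46.3% of 54 female ERaKO, 59.3% of 91 male and 58.6% of 70 female phagocytes. They made up 56.1%, 59.2% and 64.2% of all Cxcr4 UMIs in the same libraries, from under 3% of the cells. T and NK cells came next at 38.1 CPM in the female ERaKO, 97.0 CPM in the male and 93.1 CPM in the female library, with 8, 22 and 28 UMIs. Intercalated cells of the collecting duct had 8.57, 13.04 and 18.7 CPM in the same order, from 3, 14 and 7 UMIs. The ranges of phagocytes, T and NK cells and intercalated cells did not overlap, and phagocytes exceeded podocytes by a mean of 7.16 on the log2 scale in 3 of 3 libraries (exact sign-flip permutation p = 0.25, log2 of CPM plus 1).

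The scavenging receptor shared parietal cells and podocytes with the ligand among its leading classes, but not endothelial cells. Ackr3 stood at 128 CPM in the female ERaKO, 127 CPM in the male and 132 CPM in the female library in parietal cells. In podocytes it stood at 149 CPM in the female ERaKO, 71.2 CPM in the male and 83.3 CPM in the female library. The parietal values lay within a few CPM of each other, while the podocyte values spread widely with the female ERaKO library highest. Principal cells, the water- and sodium-transporting cells of the collecting duct, held 74.3 CPM in the female ERaKO, 82.9 CPM in the male and 84.2 CPM in the female library. Proximal tubule cells held 40.1, 32.0 and 24.0 CPM in the same order of libraries. That class lay in different clusters by library. The Slc7a13-led cluster held 37 female ERaKO, 95 male and 3 female cells, the Slc7a12-led cluster 85, 1 and 39, and the Pck1-led cluster 56, 0 and 43.

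Mean levels put parietal cells (129 ± 2.72 CPM, SD, n = 3 libraries) before podocytes (101 ± 42.0 CPM) and principal cells (80.4 ± 5.399 CPM), and each of these ranges overlapped its neighbour. Parietal cells were lower than podocytes in the female ERaKO library (log2 ratio −0.22) and higher in the male (0.83) and female (0.66) libraries, with a mean of 0.42 (SD 0.56, exact sign-flip permutation p = 0.5). Ackr3 was lower in mesangial cells (9.01, 10.1 and 11.3 CPM in the female ERaKO, male and female libraries) and in endothelial cells (8.14, 4.92 and 3.02 CPM). Podocytes exceeded endothelial cells by a mean log2 ratio of 4.01 (SD 0.39) in 3 of 3 libraries (exact sign-flip permutation p = 0.25). Phagocytes, the main Cxcr4 class, had 0 Ackr3 UMIs in the female ERaKO library, 0 in the male and 2 in the female library.

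Endothelial Cxcl12 was not spread evenly over that class. The cluster led by Tspan8, Thbs2 and Sox17 held 241 CPM in the female ERaKO library (212 cells), 252 CPM in the male (221 cells) and 194 CPM in the female library (207 cells). Sox17 encodes a transcription factor of arterial endothelium. The cluster led by Kdr, the main VEGF receptor, and Ehd3, a glomerular capillary gene, held 5.80 CPM in the female ERaKO (176 cells), 2.35 CPM in the male (389 cells) and 2.03 CPM in the female library (370 cells). The difference between these 2 clusters averaged 5.80 on the log2 scale (SD 0.57) and was in the same direction in 3 of 3 libraries (exact sign-flip permutation p = 0.25). The cluster led by Calca, which also held haemoglobin RNA, had 38.4 CPM in the female ERaKO, 21.8 CPM in the male and 11.7 CPM in the female library.

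A small endothelial cluster led by Esm1 and Dll4, genes of endothelial tip cells, held both the ligand and its signalling receptor, with no cell seen to hold both after thinning. It held Cxcl12 at 170 CPM in the female ERaKO (48 cells), 199 CPM in the male (68 cells) and 107 CPM in the female library (30 cells). Cxcr4 in it stood at 14.5 CPM (6 UMIs) in the female ERaKO, 37.1 CPM (20 UMIs) in the male and 60.1 CPM (18 UMIs) in the female library. With each cell thinned to 4000 UMIs, Cxcl12 and Cxcr4 were seen together in 0 of 48 female ERaKO, 0 of 68 male and 0 of 30 female cells, and unthinned in 0%, 2.94% and 3.33%. Cxcr4 was seen in 0% of the thinned cells with a Cxcl12 UMI in each library, against 13.5% of those without in the female ERaKO, 28.6% in the male and 14.8% in the female library. The cells with a Cxcl12 UMI numbered 11, 19 and 3 in that order. In the Sox17-led cluster Cxcr4 had 3 UMIs in the female ERaKO library, 0 in the male and 0 in the female library. Without the Esm1-led cluster, endothelial Cxcr4 was 2.32 CPM in the female ERaKO, 0.838 CPM in the male and 0.602 CPM in the female library, against 3.29, 3.84 and 3.17 CPM with it. The Esm1-led cells also held Nphs1 at 347, 234 and 454 CPM in the same order of libraries. Podocyte RNA at that Nphs1 level would carry 22.0, 20.4 and 24.8 CPM of Cxcl12, which is below the measured level in each library, and 42.2, 11.3 and 22.8 CPM of Ackr3, against the measured 43.6, 24.1 and 10.0 CPM. Podocytes held 1 Cxcr4 UMI in all.

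**Figure D2:**
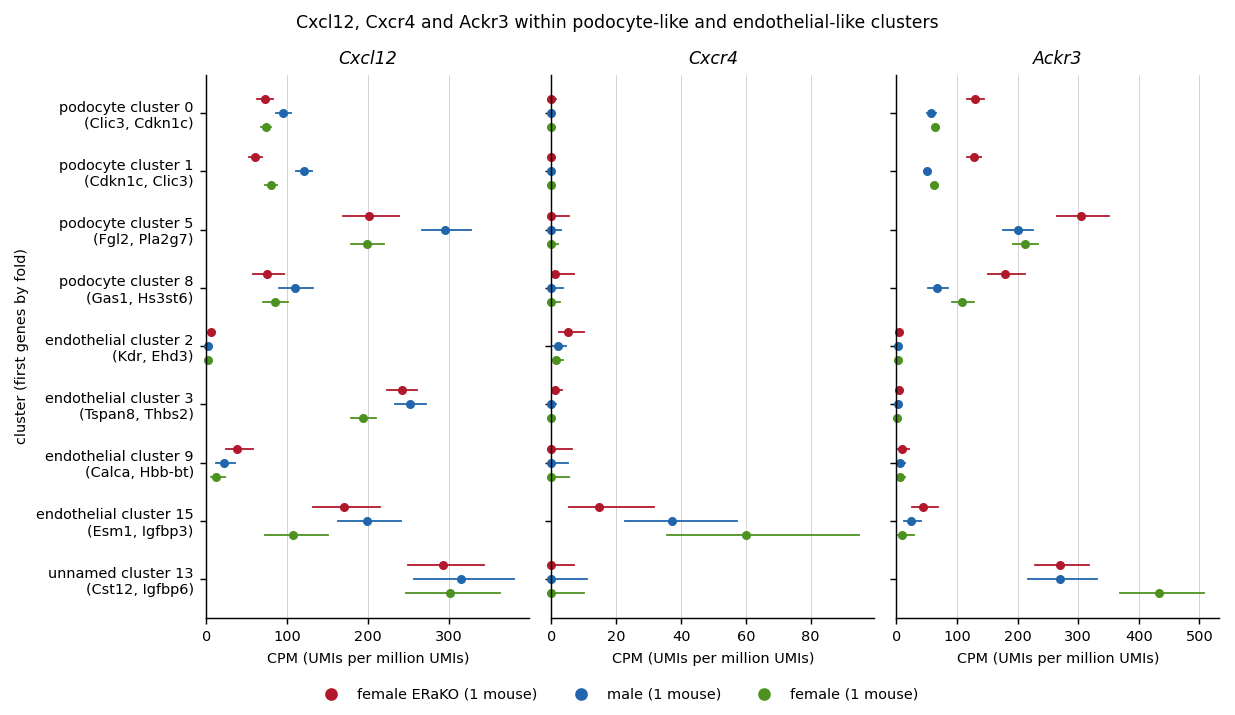
CPM of Cxcl12, Cxcr4 and Ackr3 on the x axes in the podocyte-like and endothelial-like clusters and in 1 unnamed cluster on the y axis, each labelled with its first 2 genes by fold, with 1 point per library and exact Poisson 95% intervals. Cxcl12 is at 194 to 252 CPM in endothelial cluster 3 against 2.03 to 5.80 CPM in cluster 2, and Ackr3 is at 200 to 305 CPM in podocyte cluster 5 and at 269 to 434 CPM in unnamed cluster 13.

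Among podocytes, the ligand and the scavenging receptor were both higher in the cells with UMIs of Cst12, Dkk3 or Ogn, which encode a cystatin, a secreted Wnt modulator and a small leucine-rich proteoglycan. Such cells numbered 98 of 866 in the female ERaKO library, 193 of 1291 in the male and 189 of 1493 in the female library. Cxcl12 stood at 160 CPM in the female ERaKO cells with such a UMI, against 66.9 CPM in those without, at 234 CPM against 109 CPM in the male and at 169 CPM against 78.3 CPM in the female library. Ackr3 stood at 243 CPM in the female ERaKO cells with such a UMI, against 137 CPM in those without, at 153 CPM against 55.9 CPM in the male and at 184 CPM against 67.3 CPM in the female library. Both genes were higher in the cells with a UMI in 3 of 3 libraries. The mean log2 ratio was 1.15 (SD 0.09) for Cxcl12 and 1.23 (SD 0.35) for Ackr3, each with an exact sign-flip permutation p = 0.25.

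Median depths of the cells with and without such a UMI were 6731.5 UMIs against 7398 in the female ERaKO library, 7690 against 7768 in the male and 9536 against 9156.5 in the female library. Mean depths were higher in the cells with a UMI in each library, at 9234 UMIs against 8950 in the female ERaKO, 9641 against 9022 in the male and 12616 against 11460 in the female library. The podocyte marker Nphs1 was lower in them, at 1049 CPM against 1248 CPM in the female ERaKO, 1248 CPM against 1525 CPM in the male and 1423 CPM against 1699 CPM in the female library. With every cell thinned to 4000 UMIs before the split, the mean log2 ratio was 1.495 for Cxcl12 and 1.57 for Ackr3, no smaller than unthinned. The part of the lower Nphs1 was not tested. By the number of the 3 genes seen in a cell (none, 1, 2 or 3), Ackr3 stood at 137, 101, 311 and 428 CPM in the female ERaKO library. The male library gave 55.9, 61.7, 202 and 262 CPM and the female library 67.3, 105, 191 and 322 CPM. Cxcl12 stood at 66.9, 98.7, 240 and 189 CPM in the female ERaKO, 109, 122, 294 and 371 CPM in the male and 78.3, 133, 153 and 246 CPM in the female library. Both genes thus stood at their lowest in cells with none of the 3 or with 1, and the order between 2 and 3 genes differed only for Cxcl12 in the female ERaKO library.

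**Figure D3:**
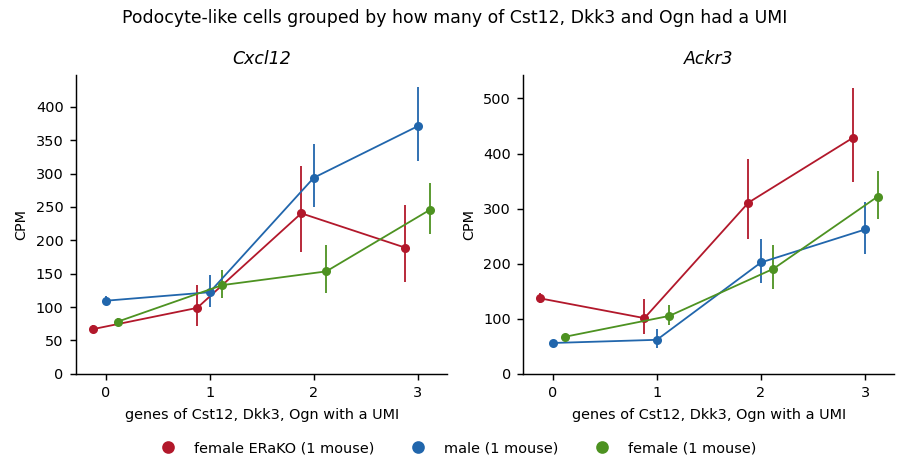
CPM of Cxcl12 and Ackr3 on the y axes in podocyte-like cells with a UMI of none, 1, 2 or 3 of Cst12, Dkk3 and Ogn on the x axes, with lines joining the points of 1 library and bars for exact Poisson 95% intervals. Ackr3 reaches 428 CPM in the female ERaKO, 262 CPM in the male and 322 CPM in the female cells with all 3.

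The same split was largely a split by cluster. The podocyte cluster led by Fgl2, Pla2g7, Cst12 and Dkk3 held 73 of the 98 such cells in the female ERaKO library, 131 of 193 in the male and 146 of 189 in the female library. Its Cxcl12 stood at 201 CPM in the female ERaKO, 296 CPM in the male and 198 CPM in the female library, and its Ackr3 at 305, 200 and 212 CPM in the same order. Over the other podocyte clusters it was higher by a mean log2 ratio of 1.46 (SD 0.12) for Cxcl12 and 1.55 (SD 0.34) for Ackr3 in 3 of 3 libraries (exact sign-flip permutation p = 0.25 for each). An unnamed cluster led by Cst12, Igfbp6, Ogn and Dcn had 64, 47 and 43 cells in the female ERaKO, male and female libraries. Its Cxcl12 was above that of the Fgl2-led cluster in each library, though by little in the male. Its Ackr3 was higher in the male and female libraries and lower in the female ERaKO library. It held Cxcl12 at 293, 314 and 301 CPM and Ackr3 at 271, 269 and 434 CPM in those libraries.

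Most parietal cells had such a UMI themselves, 188 of 214 in the female ERaKO library, 102 of 122 in the male and 61 of 78 in the female library. Their Cxcl12 stood at 96.5 CPM against 20.3 CPM in the parietal cells without one in the female ERaKO, 99.8 CPM against 31.7 CPM in the male and 118 CPM against 59.7 CPM in the female library, a mean log2 ratio of 1.60 (SD 0.61, higher in 3 of 3 libraries, exact sign-flip permutation p = 0.25). Ackr3 gave no common direction, at 130 CPM against 105 CPM in the female ERaKO, 145 CPM against 38.0 CPM in the male and 127 CPM against 161 CPM in the female library (exact sign-flip permutation p = 0.75). The parietal cells without a UMI were 26, 20 and 17 in number, and their Cxcl12 rests on 5, 10 and 10 UMIs, with 6 of the male 10 in 1 cell. Their median depths were lower, at 8376, 8711 and 8658 UMIs in the female ERaKO, male and female libraries, where the cells with a UMI had 13747, 9735 and 9277. The part of depth in this difference was not tested.

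Ligand and scavenging receptor were also found in the same cells. With each cell thinned to 4000 UMIs, both Cxcl12 and Ackr3 were seen in 7.51% of female ERaKO, 7.44% of male and 6.36% of female podocytes, and unthinned in 18.0%, 13.9% and 17.1%. Ackr3 was seen in 34.8% of the thinned female ERaKO podocytes with a Cxcl12 UMI against 33.6% of those without, in 22.6% against 17.0% in the male and in 24.1% against 18.7% in the female library. In the unnamed Cst12- and Ogn-led cluster both were seen in 37.5% of female ERaKO, 42.6% of male and 44.2% of female cells after thinning. Parietal cells gave 14.0%, 9.02% and 5.13%. There, Ackr3 was seen in 46.9% of the thinned female ERaKO cells with a Cxcl12 UMI against 38.7% of those without, in 34.4% against 40.0% in the male and in 15.4% against 42.3% in the female library. The share with Ackr3 beside Cxcl12 was thus nearly the same as without it in female ERaKO podocytes, and higher in male and female podocytes. In parietal cells it was higher in the female ERaKO library but not in the other 2. No interval was computed for these differences. Cxcl12 and Cxcr4 together were seen in none of the thinned podocytes.

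The groups were then compared, class by class, with log2 ratios of CPM plus 1 and exact 95% intervals of counting error. Of the 3 genes, Cxcr4 had too few counts in podocytes to be tested, with 1 UMI in the female ERaKO and 0 in the female library. Of Cxcl12 and Ackr3, 1 was at least 1.5-fold higher in female ERaKO than in female podocytes. Among the 11619 genes tested 2.85% were, and 1.03% of those at 50 CPM or more. That gene was Ackr3, with 1161 UMIs in 866 female ERaKO cells and 1444 UMIs in 1493 female cells, 149 CPM against 83.3 CPM, or 1.78-fold (log2 0.83, interval 0.73 to 0.95). In all, 167 genes stood as high or higher. An Ackr3 UMI was seen in 46.4% of female ERaKO podocytes against 30.8% of female podocytes, and in 33.8% against 20.1% after thinning to 4000 UMIs. Phagocytes, the class with the least Ackr3, had 0% of 54 female ERaKO cells against 2.86% of 70 female cells. Their median depths were 6453.5 and 8524.5 UMIs, against 7341.5 and 9184 UMIs in the podocytes. Ratios in the other classes went in both directions. Those whose intervals excluded 0 were all higher in the female ERaKO library. T and NK cells had 7 Ackr3 UMIs in 25 female ERaKO cells and 0 in 38 female cells, with Nphs1 at 277 CPM against 53.2 CPM. Proximal tubule cells held Ackr3 at 40.1 CPM against 24.0 CPM (log2 0.72, interval 0.21 to 1.30). Endothelial cells held 8.14 CPM against 3.02 CPM (log2 1.18, interval 0.64 to 2.26). Thick limb and distal tubule cells were also higher at 24.6 CPM (17 UMIs) against 5.22 CPM (2 UMIs). Intercalated cells stood at 14.3 CPM (5 UMIs) against 0 CPM. Mesangial cells went the other way at 9.01 CPM against 11.3 CPM (log2 interval −1.78 to 1.32). Smooth muscle and renin cells did so at 9.12 CPM against 17.7 CPM (log2 interval −1.98 to 0.04). Principal cells (log2 −0.18, interval −0.77 to 0.40) and parietal cells (log2 −0.05, interval −0.32 to 0.23) were also lower, within counting error. The part of free RNA was not tested.

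Every podocyte cluster had more Ackr3 in the female ERaKO than in the female library. The 2 largest stood at 130 CPM against 63.6 CPM (log2 1.02, interval 0.83 to 1.24) and at 128 CPM against 62.5 CPM (log2 1.02, interval 0.84 to 1.23). The Gas1-led cluster stood at 180 CPM against 109 CPM (log2 0.72) and the Cst12-holding cluster at 305 CPM against 212 CPM (log2 0.52, interval 0.27 to 0.77). Without that last cluster the podocyte ratio was 0.99 (interval 0.88 to 1.13), at 135 CPM in the female ERaKO against 67.1 CPM in the female library. Podocytes with none of Cst12, Dkk3 and Ogn gave 2.02-fold (log2 1.01), and those with a UMI of any gave 1.32-fold (log2 0.40, interval 0.16 to 0.64). In the unnamed Cst12- and Ogn-led cluster the direction was the opposite, with 271 CPM in the female ERaKO against 434 CPM in the female library (log2 −0.68, interval −1.02 to −0.35).

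Confetti reporter UMIs mark cells in which Cre has acted, although a cell without one may only be too shallow to show it. Podocytes with a reporter UMI held Ackr3 at 148 CPM in the female ERaKO (100 cells) against 68.6 CPM in the female library (300 cells), a log2 ratio of 1.10 (interval 0.84 to 1.38). Podocytes with none held 149 CPM in the female ERaKO against 88.7 CPM in the female library, a log2 ratio of 0.75 (interval 0.63 to 0.88). The difference was thus seen with and without the mark.

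Podocyte Cxcl12 was within 1.5-fold in the same comparison. It stood at 77.8 CPM in the female ERaKO against 90.8 CPM in the female library (log2 −0.22, interval −0.36 to −0.09), and 3.46% of all genes were at least 1.5-fold lower there. In podocytes with a reporter UMI it was just past 1.5-fold lower, at 58.3 CPM against 89.5 CPM (log2 −0.61, interval −1.0 to −0.25). In podocytes with none it was 81.4 CPM against 91.2 CPM (log2 −0.16, interval −0.31 to −0.01). The summed level of the immediate early genes, which respond to handling, was 5555 CPM in female ERaKO and 4048 CPM in female podocytes. Proximal tubule markers summed to 149 CPM in female ERaKO and 43.9 CPM in female podocytes, with 0 of 9 markers at 0 in either library, and parietal markers to 145 CPM and 125 CPM, with 0 of 8 at 0. Their part in the Ackr3 difference was not tested.

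Between male and female podocytes, neither Cxcl12 nor Ackr3 passed 1.5-fold, where 2.01% of the 11783 genes tested were that much higher and 1.65% that much lower. Cxcr4, with 0 UMIs in both libraries, could not be tested. Cxcl12 stood at 129 CPM in the male against 90.8 CPM in the female library, or 1.42-fold (log2 0.50, interval 0.41 to 0.61), with 340 genes as high or higher. It was higher in the male library in each of the 4 podocyte clusters, at 95.0 CPM against 73.8, 120 against 79.8, 296 against 198 and 109 against 84.2 CPM in the female library. Ackr3 stood at 71.2 CPM in the male against 83.3 CPM in the female library (log2 −0.22, interval −0.35 to −0.10). Both comparisons share the female library, so a value that is low or high there enters both.

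In parietal cells neither Cxcl12 nor Ackr3 passed 1.5-fold in either comparison, and Cxcr4 had too few counts to be tested. There, 10.3% of the genes tested were that much higher and 6.49% that much lower in the female ERaKO library, and 11.4% that much higher and 5.3% that much lower in the male library. Ackr3 gave log2 ratios of −0.05 (interval −0.32 to 0.23) for female ERaKO and −0.06 (interval −0.36 to 0.25) for male over female cells. Cxcl12 gave −0.24 (interval −0.54 to 0.07) and −0.30 (interval −0.65 to 0.06). The female class holds 78 cells, and differences within these intervals were not detectable at this depth. By reporter, parietal Ackr3 stood at 127 CPM in the female ERaKO, 119 CPM in the male and 158 CPM in the female cells with a UMI, and at 130, 142 and 95.1 CPM in those with none, so that the female library was the highest of the 3 with a UMI and the lowest without.

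In endothelial cells 2 of the 3 genes were at least 1.5-fold higher in the female ERaKO than in the female library, where 4.85% of the 11762 genes tested were. Cxcl12 stood at 142 CPM against 90.6 CPM (log2 0.65, interval 0.50 to 0.81). Ackr3 stood at 8.14 CPM (42 UMIs) against 3.02 CPM (21 UMIs), and its log2 ratio of 1.18 (interval 0.64 to 2.26) was 0.71 (interval −0.04 to 1.87) without the Esm1-led cluster, whose cells held podocyte RNA. Over the whole class, Nphs1 stood at 41.1 CPM in female ERaKO and 35.3 CPM in female endothelial cells. Podocytes of those libraries held Nphs1 at 1225 and 1661 CPM, beside Ackr3 at 149 and 83.3 CPM. The part of podocyte RNA in endothelial Ackr3 was not tested. In the male library 0 of the 3 genes passed, where 3.15% of all genes were that much higher and 3.12% lower, and Cxcl12 stood at 124 CPM against 90.6 CPM in the female library (log2 0.44, interval 0.30 to 0.60).

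The makeup of the endothelial class differed between libraries. The Sox17-led cluster supplied 50.8% of endothelial UMIs in the female ERaKO library, 41.2% in the male and 43.4% in the female library. Within that cluster Cxcl12 was 241 CPM in the female ERaKO against 194 CPM in the female library (log2 0.32, interval 0.15 to 0.48), and 252 CPM in the male against the same 194 CPM (log2 0.38, interval 0.22 to 0.54). When at most 10% mitochondrial UMIs were allowed, or clusters were made finer, no Sox17-led cluster was named endothelial and the class held 27.0 or 28.7 CPM of Cxcl12 on average, against 119 CPM.

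Phagocyte Cxcr4 was 117 CPM in the female ERaKO against 185 CPM in the female library (log2 −0.66, interval −1.18 to −0.16) and 151 CPM in the male against 185 CPM in the female library (log2 −0.29, interval −0.69 to 0.11). The first of these intervals lies below 0 and the second includes it. These classes hold 54, 91 and 70 cells in the female ERaKO, male and female libraries.

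**Figure D4:**
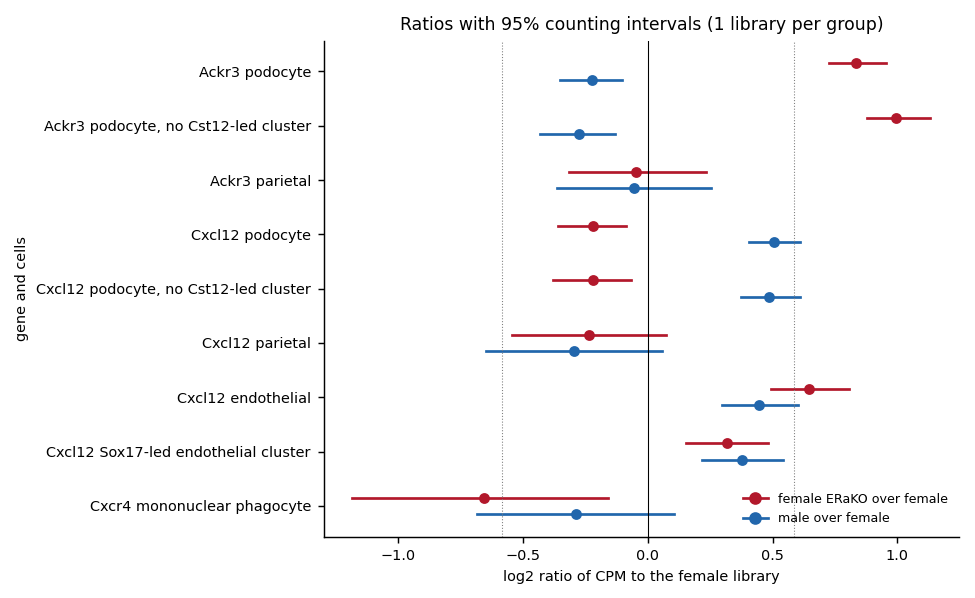
Log2 ratios of CPM to the female library on the x axis for the genes and cells named on the y axis, with female ERaKO above male in each pair, lines for 95% intervals of counting error and dotted lines at 1.5-fold. Podocyte Ackr3 lies at 0.83 for the female ERaKO and −0.22 for the male library, and parietal Ackr3 lies near 0 in both.

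Genes that act around this chemokine were read from fixed lists in the same classes. Sdc4, a syndecan whose heparan sulphate can hold CXCL12, averaged 3608 CPM in podocytes over the 3 libraries, 670 CPM in parietal and 113 CPM in endothelial cells. Dpp4, a peptidase that inactivates CXCL12 by trimming it, averaged 1407 CPM in podocytes, 39.8 CPM in parietal cells and 43.9 CPM in endothelial cells. Cpn1, a carboxypeptidase subunit that trims the other end, averaged 96.7 CPM in parietal cells and 0.657 CPM in podocytes. Adm, whose product adrenomedullin is also scavenged by ACKR3, averaged 104 CPM in podocytes, while its signalling receptor subunits Calcrl and Ramp2 averaged 878 and 644 CPM in endothelial cells. Phagocytes held Cd74, a receptor for the CXCR4 ligand Mif, at 9166 CPM, and the G-protein regulator Rgs1 at 498 CPM. No 1 class was highest for all of these genes. Of the other processing and binding genes, the matrix protease gene Mmp2 averaged 2.62 CPM in podocytes and 195 CPM in mesangial cells, and Hspg2, which encodes the heparan sulphate proteoglycan perlecan, averaged 1.79 CPM in podocytes and 203 CPM in endothelial cells. Rgs16, another G-protein regulator, was at 0 CPM in phagocytes of all 3 libraries and averaged 20.5 CPM in endothelial cells.

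**Figure D5:**
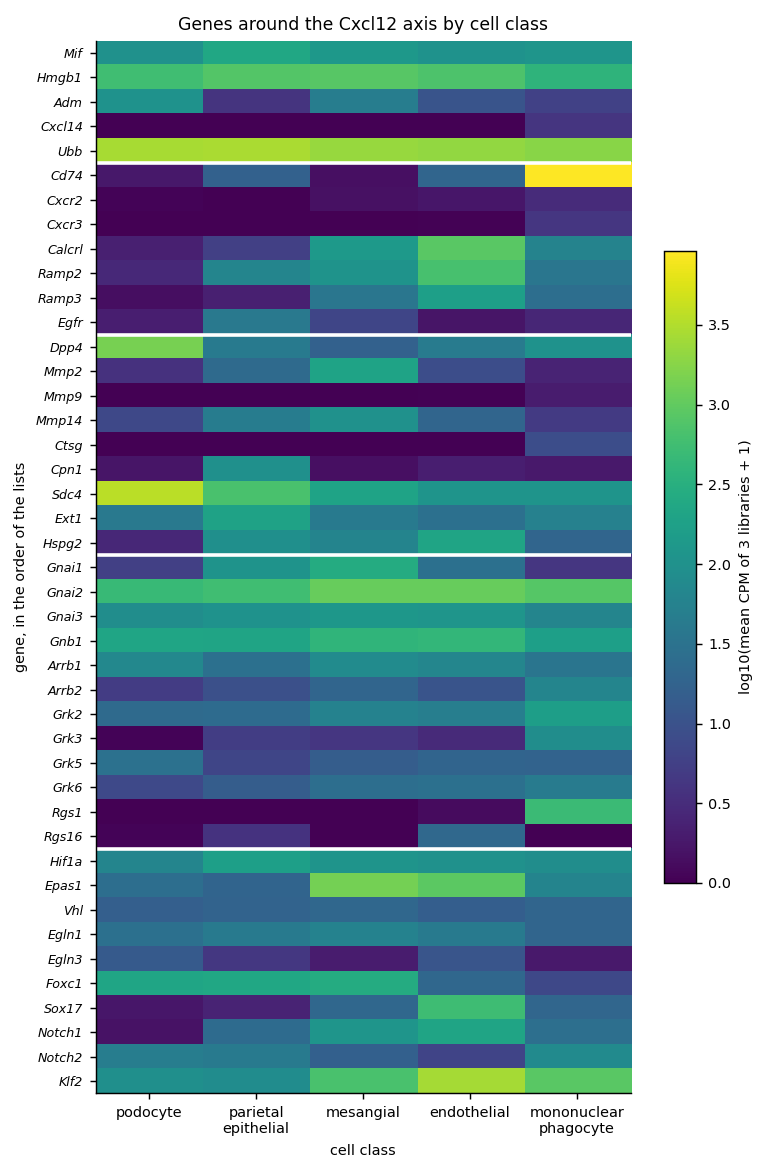
Mean level of 43 genes in 5 cell classes, as log10 of the mean CPM of the 3 libraries plus 1, with white lines between the lists of ligands, other receptors, processing and binding genes, G proteins with arrestins and kinases, and transcriptional regulators. Dpp4 and Sdc4 are highest in podocytes, Calcrl and Sox17 in endothelial cells and Cd74 and Rgs1 in phagocytes.

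The share of these genes past 1.5-fold in podocytes was near that of all genes, with 2 of 41 higher and 0 lower in the female ERaKO library. In female ERaKO against female podocytes, 0 of 4 measured ligands, 0 of 4 other receptors, 0 of 9 G proteins, arrestins and kinases and 0 of 10 downstream kinases were past 1.5-fold in either direction, beside 2.85% of all genes higher and 3.46% lower. Of 6 measured processing and binding genes 1 was higher, the membrane protease gene Mmp14 at 7.84 CPM in the female ERaKO against 4.56 CPM in the female library (log2 0.67, interval 0.28 to 1.28). Of 8 measured transcriptional regulators 1 was higher, the hypoxia-inducible factor gene Epas1 at 34.3 CPM against 22.4 CPM (log2 0.59, interval 0.39 to 0.84), with the shear-responsive Klf2 just under the limit at 125 CPM against 84.8 CPM (log2 0.56). The list medians ran from −0.12 for ligands to 0.43 for other receptors, against −0.01 for all genes. The ligand genes Mif and Hmgb1 gave −0.04 and −0.21, and Adm gave 0.30, with 106 CPM in the female ERaKO against 85.8 CPM in the female library.

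Between male and female podocytes 0 of the 41 measured members of these 6 signalling lists were past 1.5-fold, where 2.01% of all genes were higher and 1.65% lower, so that 0 is near the background. Of the 3 genes of the podocyte split, Ogn was higher at 28.9 CPM in the male against 15.9 CPM in the female library (log2 0.82, interval 0.63 to 1.09) and Dkk3 at 37.0 CPM against 22.4 CPM (log2 0.70, interval 0.52 to 0.92), while Cst12 gave 0.10. In female ERaKO against female podocytes the same 3 genes gave 0.03, −0.05 and 0.28.

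In parietal cells of the female ERaKO library, 6 of 42 measured members of the same 6 lists were at least 1.5-fold higher and 2 lower than in the female library, where 10.3% and 6.49% of all genes were. Those named by rule were Cd74 at 32.5 CPM in the female ERaKO against 5.67 CPM in the female library (log2 2.33, interval 1.36 to 3.99), Notch1 at 28.9 CPM against 14.2 CPM (log2 0.98), the arrestin gene Arrb1 at 35.4 CPM against 19.8 CPM (log2 0.80) and the matrix protease gene Mmp2, which was lower at 14.0 CPM against 33.1 CPM (log2 −1.18, interval −1.87 to −0.59). Phagocytes held Cd74 at 9030 CPM in the female ERaKO and 7752 CPM in the female library. The part of phagocyte RNA in parietal Cd74 was not tested.

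In endothelial cells 5 of 46 measured members were at least 1.5-fold higher in the female ERaKO library and 0 lower, where 4.85% and 4.06% of all genes were. Among them, Sdc4 stood at 146 CPM in the female ERaKO against 81.7 CPM in the female library (log2 0.83, interval 0.67 to 0.99) and Cd74 at 48.5 CPM against 6.19 CPM (log2 2.78). The part of phagocyte RNA in endothelial Cd74 was not tested either.

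By likeness over 27 points of class and library (9 classes), the genes nearest to Ackr3 among 9602 were Cryab, Cgnl1, Slc25a23, Lgr4 and Serf1, with Pearson correlations across points of 0.94 to 0.92 in log2(CPM + 1). Those nearest to Cxcl12 were Pdzd2, Cltb, Sh3tc2, Gdpd5 and Pam, at 0.90 to 0.80, and those nearest to Cxcr4 were Fyb, Coro1a, Runx3, Ly6c2 and Cd37, at 0.98 to 0.97. Cxcl12 and Ackr3 gave 0.43 with each other and Ackr3 and Cxcr4 gave −0.76. The points share libraries and depth, and the values are descriptions.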

How the data were processed

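Raw UMI counts per gene and cell barcode were used as deposited, 1 matrix per library, and the rule by which barcodes were called as cells is not given in the sources used here. The names given for the authors' counts, per the submitters' processing notes and with no role or order, are mm10, STAR 2.7.5a and Cell Ranger 6.1.2. Per the labels, 10x 3′ libraries were sequenced on a NextSeq500. Gene positions came from a GRCm38 annotation.

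Barcodes under 500 genes or above 25% mitochondrial UMIs were left out, and doublets with a Scrublet score above 0.2 were removed. This threshold was set after the automatic one called almost no cell in the female library. Cells were scaled to 10000 UMIs, log-transformed, reduced to 30 components of 2000 variable genes (without the 3 genes, mitochondrial, Y-linked, haemoglobin and reporter genes, Xist and Tsix) and clustered by the Leiden method at resolution 1 with 15 neighbours. A cluster took the name of the marker list with a mean log2 score of at least 1, leading the next by 0.75, with at least 3 markers 2-fold up and no more markers of another class than its own among its 10 top genes. Haemoglobin genes were left out of naming after the clusters were seen.

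Counts were summed per class and library and divided by the class total (CPM). Levels have exact Poisson, shares Clopper-Pearson and ratios exact conditional intervals at 95%. A count of 0 allows up to 3 counts. Group ratios use log2(CPM + 1) and, with 1 library per group, have no test and no p-value. Classes within libraries were compared with exact two-sided sign-flip permutation tests. Genes with at least 20 summed counts in 2 libraries were tested for a 1.5-fold ratio. The ratios and intervals were tested on simulated counts with known changes. Named genes are the 3 genes, the 2 highest and 2 lowest of each list, and the 5 most alike by Pearson correlation over classes with at least 20 cells in every library, at 30 CPM or more in a point. The 3 genes and all lists were chosen with earlier results of these data known. Promoters and their motif counts came from RefSeq's GRCm38.p6 table, in which all 3 genes matched. TMM factors came from edgeR 4.0.16 in R 4.3.3. Replicates from separate animals were not analysed here.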

Additional observations from a re-analysis of the deposited data

How the results depend on the processing

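For 28 results, 249 values were recomputed under other settings. Of these, 214 stayed within 1 SD over libraries (levels and differences between classes) or within the 95% interval of counting error (differences between groups), and 35 moved beyond it. That SD includes the differences between the groups, since each library is 1 group. For podocyte Ackr3 it was 42.0 CPM on a mean of 101 CPM, and for parietal Ackr3 2.72 CPM on 129 CPM. The change needed to count as moved thus differed between results. None of the recomputed values turned the direction of a group ratio whose interval excluded 0, or of a class ratio whose mean was beyond its SD. Ratios nearer 0 could not count as turned. Among them, podocyte over endothelial Cxcl12 changed sign from −0.27 to 2.02 and 1.92 at the settings given below. The female ERaKO ratio of parietal Cxcl12 changed from −0.24 to 0.14. The female ERaKO over female ratio of podocyte Ackr3 moved only without the Fgl2- and Cst12-led cluster, to 0.99. The largest changes were in endothelial cells, because no Sox17-led cluster was named endothelial at most 10% mitochondrial UMIs or at resolution 2. At 10% mitochondrial UMIs, endothelial Cxcl12 averaged 27.0 CPM, its log2 ratio was 1.74 for female ERaKO and 1.41 for male over female cells, and podocytes over endothelial cells gave 2.02. At resolution 2 the same values were 28.7 CPM, 2.10, 2.04 and 1.92. The Sox17-led over Kdr-led ratio could not be computed at those settings and was 4.98 at resolution 0.5. Endothelial Cxcr4 averaged 5.43 CPM at 10% mitochondrial UMIs, 5.62 CPM at resolution 2, 1.25 CPM without the Esm1-led cluster and 3.85 CPM without the Calca-led cluster, against 3.44 CPM. Podocyte over endothelial Ackr3 was 4.42 without the Esm1-led cluster. Parietal Cxcl12 averaged 119.7 CPM at resolution 0.5, 62.2 CPM at resolution 2 and 107.4 CPM with classes set cell by cell. Parietal Ackr3 averaged 136.2 CPM at 10% mitochondrial UMIs, 126.0 CPM with doublets kept, 137.6 CPM at resolution 0.5, 114.7 CPM at resolution 2 and 169.6 CPM cell by cell. Cell by cell, parietal log2 ratios to the female library were −0.59 (Cxcl12, female ERaKO), −0.56 (Ackr3, female ERaKO) and −0.37 (Ackr3, male), and podocyte over mesangial Cxcl12 was 3.13. At resolution 2, the female ERaKO ratio of parietal Cxcl12 was 0.14 and parietal over podocyte Cxcl12 was −0.57. The Cst12-holding cluster over other podocytes gave 1.61 for Cxcl12 at resolution 0.5. Podocytes with over without Cst12, Dkk3 or Ogn UMIs gave 1.26 (10% mitochondrial UMIs), 1.24 (doublets kept), 1.55 (at least 2 of the 3 genes) and 1.495 (thinned cells) for Cxcl12, and 1.81 (at least 2 genes) for Ackr3. Beyond the naming of clusters, the cause was not tested. The settings without the Cst12-, Esm1- or Calca-led clusters were chosen after seeing the data. No paired analysis was possible because each group is 1 library. With 1 mouse per group, depth limits what parietal and phagocyte values can show, and the spread between mice is unknown.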

Other observations

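Barcodes left out of the classes still held these transcripts. Over the 1466 female ERaKO, 1020 male and 727 female barcodes that were left out, Cxcl12 stood at 20.5, 16.2 and 18.1 CPM, Ackr3 at 16.5, 10.9 and 14.4 CPM and Cxcr4 at 1.12, 1.55 and 3.37 CPM. The order of the 3 genes was the same in each library.

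An unnamed cluster led by Ugt2b37, Gc, Cpn1 and the glucose transporter gene Slc5a2, with 92 female ERaKO, 77 male and 38 female cells, held Ackr3 at 96.0 CPM in the female ERaKO, 68.0 CPM in the male and 75.2 CPM in the female library. Named proximal tubule cells, which lay in different clusters by library, held less, at 40.1, 32.0 and 24.0 CPM in the same order. The ligand was low in the unnamed cells, with Cxcl12 at 8.42, 11.0 and 7.52 CPM, and named proximal tubule cells held 24.0, 14.1 and 30.01 CPM. No test was made of these differences, and the unnamed cells were deeper, with median depths of 17745.5, 20311 and 17494.5 UMIs against 11916, 10974 and 15414 UMIs.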
